A study of Mus musculus with 23 samples.

Results

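The 9 genes described here fall into 2 sets that share work in antigen recognition and presentation. Cd79a, Cd79b, Ms4a1 and Blnk are genes of the B lineage. Cd74, H2-Aa, H2-Ab1, H2-Eb1 and Ciita belong to the MHC class II system, which B cells share with dendritic cells and macrophages. They were chosen by symbol, and a probe set counted only where the platform annotation gave that symbol and no other. This gave 14 probe sets, 5 for the B lineage and 9 for class II genes, of the 22626 that were tested. A gene with several was represented by its brightest, by mean log2 over the 23 arrays, and 12393 genes in all were counted in this way.

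The arrays were Affymetrix Mouse 430A 2.0 chips, and the study set out to compare gene expression after loss of Snf5 (the gene Smarcb1, which encodes a core part of the SWI/SNF remodeller) and of Ezh2 (the histone methyltransferase of Polycomb repressive complex 2). The main comparison used 6 arrays labelled wild-type CD8+ T cells and 5 labelled as CD8+ T cell lymphomas deficient for Snf5, both from mice of 10 to 15 weeks. The other arrays came from mouse embryonic fibroblasts (MEFs) of stage E13.5, with 3 arrays for each of Ezh2-deficient cells, Snf5 Ezh2-deficient cells and the wild-type controls of either line. In the mutant fibroblasts the genes named in their labels were inactivated conditionally. The sources used here do not name the strain, the Cre driver, the organ of the T cells or the way they were purified. The titles name biological replicates without saying which animals or cultures they came from, so the p-values rest on the spread among these arrays, which may be technical. Values are log2 of the deposited intensity, where 1 unit is a doubling. The lowest 25% of probe sets of a T cell array lay below 5.11 to 5.32, and values in that range are called near the floor.

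A B cell senses antigen through surface immunoglobulin, which signals through the partner chains encoded by Cd79a and Cd79b. Blnk is the adaptor that links this receptor to calcium signalling, and Ms4a1 encodes the surface protein CD20. Class II molecules are pairs of an alpha chain (H2-Aa) and a beta chain (H2-Ab1, and H2-Eb1 of the second isotype) that display peptides to CD4+ T cells. Cd74 encodes the invariant chain, which escorts them through the cell, and Ciita encodes the transactivator that turns the whole set on. Mouse T cells carry little class II of their own, and its genes are used as markers of antigen-presenting cells.

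The promoters below show the letters through which these sets are known to be controlled. RefSeq promoter sequences of build GRCm38.p6 were matched by symbol for 4 of the 9 genes, and the 250 bases before the start are shown. In the Cd79a promoter, chr7:24897247-24897496 on the plus strand, capitals mark CAAGGGAA, the core of a site that the B cell factor Ebf1 is known to bind there, from -174 to -167. In the Blnk promoter, chr19:40994222-40994471 on the minus strand, capitals mark the octamer ATTTGCAT, read by POU factors such as Pou2f2, from -130 to -123.
Cd79a: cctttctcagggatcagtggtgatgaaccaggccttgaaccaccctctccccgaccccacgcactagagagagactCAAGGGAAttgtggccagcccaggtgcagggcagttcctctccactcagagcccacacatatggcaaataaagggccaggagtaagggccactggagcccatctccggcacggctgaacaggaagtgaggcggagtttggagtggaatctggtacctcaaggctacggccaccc
Blnk: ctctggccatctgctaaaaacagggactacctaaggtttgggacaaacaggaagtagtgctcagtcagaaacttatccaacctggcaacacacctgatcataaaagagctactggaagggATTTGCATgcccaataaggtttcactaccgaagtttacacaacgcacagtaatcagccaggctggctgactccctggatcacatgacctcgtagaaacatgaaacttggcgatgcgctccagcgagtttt

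Class II promoters carry an X box, bound by the RFX complex (Rfx5, Rfxap, Rfxank), and a Y box, bound by NF-Y (with its subunit Nfya), and the protein Ciita docks on these factors without binding DNA itself. In the H2-Aa promoter, chr17:34287824-34288073 on the minus strand, capitals mark TGACGTCA, the cyclic AMP response element, from -74 to -67, and the Y box CTGATTGG from -51 to -44. In the H2-Eb1 promoter, chr17:34305617-34305866 on the plus strand, capitals mark CAACNGAT, the core of the X box, found there as CAACTGAT, from -90 to -83, and the Y box from -62 to -55.
H2-Aa: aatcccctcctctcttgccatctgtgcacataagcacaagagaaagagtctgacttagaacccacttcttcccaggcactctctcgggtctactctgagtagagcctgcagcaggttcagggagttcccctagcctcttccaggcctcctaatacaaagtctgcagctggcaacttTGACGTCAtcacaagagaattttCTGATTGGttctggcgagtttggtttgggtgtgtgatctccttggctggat
H2-Eb1: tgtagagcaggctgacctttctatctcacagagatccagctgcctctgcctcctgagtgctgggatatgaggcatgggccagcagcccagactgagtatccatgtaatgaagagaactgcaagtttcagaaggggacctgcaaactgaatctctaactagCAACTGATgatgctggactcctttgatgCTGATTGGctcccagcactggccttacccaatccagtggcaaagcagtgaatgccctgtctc

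The motifs were searched on both strands of 32851 promoter windows of the same length, and the marked stretches do not overlap. The Y box letters stood in 3.83% of those windows, the octamer in 1.60%, the response element in 1.55%, the Ebf1 letters in 1.26% and the X box letters in 1.38%. The motifs were chosen with these sequences known, and a match of letters is a description of the sequence.

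The T cell label was checked before the members. Smarcb1 lay between 10.38 and 11.48 on the wild-type arrays and between 5.64 and 8.67 on the lymphoma arrays, so the groups did not overlap and Smarcb1 fell by 3.65 (SE 0.59, adjusted p = 0.0024 in limma). Cd8b1, the beta chain of the CD8 coreceptor, read 9.35 on wild-type array 1 and 8.07 on wild-type array 6, against 11.97 to 13.61 on the other 9 arrays, a gap of 2.62. The alpha chain Cd8a was also lowest there, at 10.73 and 10.59 against 13.12 to 13.64 elsewhere. A second Cd8a probe set read 8.73 and 6.61 there, but was also low on wild-type array 5, at 10.49, against 12.13 to 13.19 on the remaining arrays. Wild-type arrays 1 and 6 thus go against their label as purified CD8+ cells. Each member's comparison, and each count or call reported below that they change, is given with and without them. Wild-type arrays 3 and 4 and lymphoma arrays 3 and 4 had the lowest means of the erythroid marker list (4.92 to 5.62, against 7.12 to 9.67 elsewhere), and the labels name no batch.

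On all 11 arrays, 1 of the 9 genes fell in the lymphomas and none rose. The one that fell was Cd79b, and over all genes 16.8% were called, 7.71% lower and 9.13% higher, at an adjusted p of 0.05. Cd79a, Ms4a1 and Blnk had lower means in the lymphomas without passing the test, and the 4 structural class II genes had means within 0.35 of the wild-type mean on the log2 scale. Without wild-type arrays 1 and 6, Cd79a, Cd79b and Ms4a1 were called lower, 3 of 9, where 13.2% of all genes were called lower and 26.4% in either direction. Without arrays 3 and 4 of both groups 1 of 9 was called, Cd79b, where 4.74% of all genes were called, 2.62% lower. The median difference of the 9 genes was -1.19 on all arrays, against -0.07 over all genes, -0.33 against -0.11 without the 2 arrays, and -2.11 against -0.05 without arrays 3 and 4 of both groups.

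**Figure D1:**
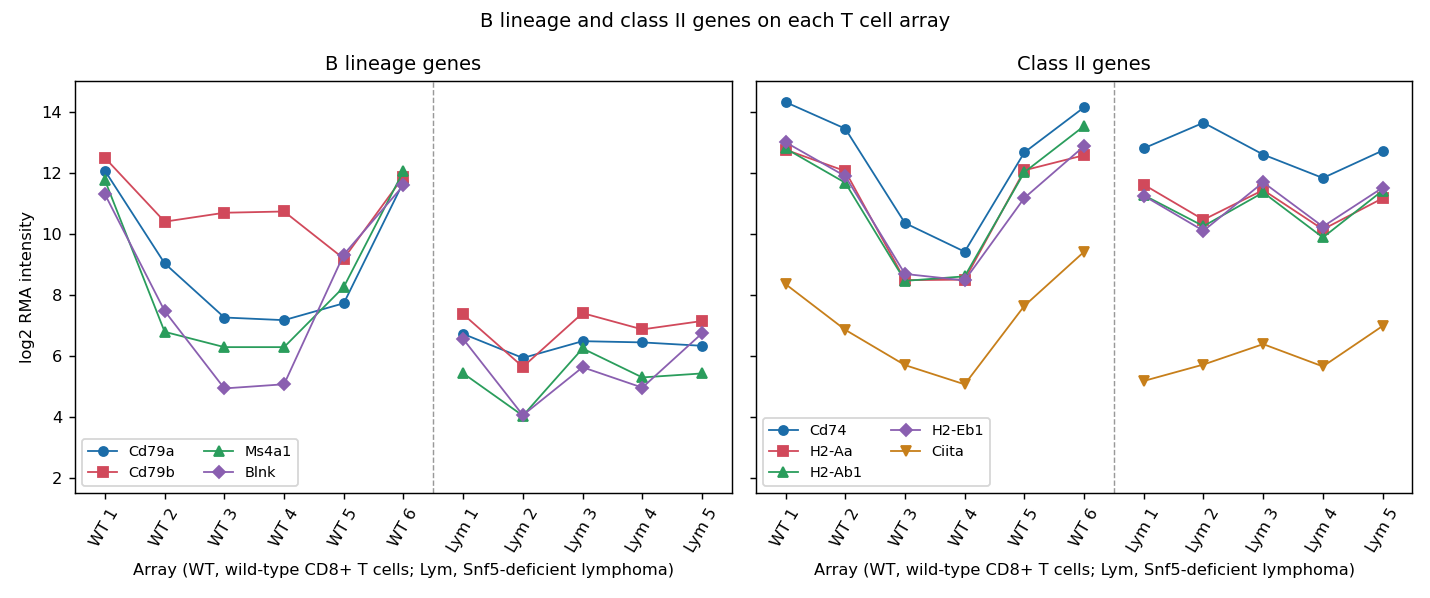
Log2 RMA intensity (y axis) of the 4 B lineage genes (left) and the 5 class II genes (right) on each of the 6 wild-type and 5 lymphoma arrays (x axis), 1 point per array and gene, with lines only to follow a gene by eye. Wild-type arrays 1 and 6 are high for every gene, wild-type arrays 3 and 4 are the lowest of their group for every gene but Cd79b, and Cd79b lies between 5.64 and 7.40 on all lymphoma arrays.

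Cd79b, the beta partner chain of the B cell receptor, read 12.48, 10.39, 10.69, 10.73, 9.18 and 11.87 on wild-type arrays 1 to 6. On lymphoma arrays 1 to 5 it read 7.36, 5.64, 7.40, 6.86 and 7.14. Every lymphoma value was below every wild-type value, as for 5.7% of all genes. The means were 10.89 ± 1.16 (SD, n = 6) and 6.88 ± 0.73 (SD, n = 5), a fall of 16.1-fold (log2 -4.01, SE 0.55, limma adjusted p = 0.00096). Without wild-type arrays 1 and 6 the fall was 10.3-fold (log2 -3.37, SE 0.44, limma adjusted p = 0.00071). Wild-type arrays 3 and 4, where the other 8 genes were low, held Cd79b at levels like those of array 2.

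Cd79a, the alpha partner chain, behaved differently within the wild-type group. It read 12.06, 9.03, 7.25, 7.17, 7.72 and 11.69 on wild-type arrays 1 to 6, and 6.72, 5.93, 6.48, 6.44 and 6.33 on lymphoma arrays 1 to 5. The groups did not overlap, but the wild-type range of 4.89 came from arrays 1 and 6. The means were 9.15 ± 2.21 (SD, n = 6) and 6.38 ± 0.29 (SD, n = 5), and the difference of -2.78 (SE 0.91) had a limma adjusted p of 0.062. Without arrays 1 and 6 Cd79a fell by 1.41 (SE 0.37, limma adjusted p = 0.022), a 2.66-fold change. It also passed without wild-type array 3 alone (log2 -3.16, adjusted p = 0.047 in limma) or array 4 alone (log2 -3.17, adjusted p = 0.044 in limma).

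Ms4a1, which encodes CD20, read 11.75, 6.78, 6.28, 6.28, 8.25 and 12.05 on the wild-type arrays and 5.42, 4.04, 6.24, 5.29 and 5.42 on the lymphoma arrays. The groups met closely, at 6.28 on wild-type arrays 3 and 4 and 6.24 on lymphoma array 3, without overlap. The difference was -3.28 (SE 1.13, limma adjusted p = 0.074), and without arrays 1 and 6 Ms4a1 fell by 1.62 (SE 0.51, limma adjusted p = 0.046). The other probe set of Ms4a1 read 12.28, 7.89, 6.53, 5.13, 7.38 and 12.28 on the wild-type arrays and 5.52, 3.69, 6.33, 4.86 and 5.42 on the lymphoma arrays. Its groups overlapped, its difference was -3.42 (SE 1.28, limma adjusted p = 0.096), and its limma adjusted p was 0.10 without arrays 1 and 6. It passed without wild-type array 4 alone (log2 -4.11, adjusted p = 0.047 in limma).

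Blnk, the receptor's adaptor, read 11.29, 7.47, 4.93, 5.07, 9.32 and 11.58 on the wild-type arrays and 6.55, 4.05, 5.62, 4.96 and 6.73 on the lymphoma arrays. Wild-type arrays 3 and 4 and lymphoma arrays 2 and 4 were near the floor, and the groups overlapped. The difference of -2.69 (SE 1.26) had a limma adjusted p of 0.18, and that of -1.11 without arrays 1 and 6 had one of 0.40. In bulk RNA, fewer cells of a type and less RNA per cell cannot be told apart, for Blnk and for every other member.

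Cd74, the invariant chain, read 14.31, 13.44, 10.35, 9.41, 12.66 and 14.14 on the wild-type arrays and 12.80, 13.63, 12.59, 11.82 and 12.72 on the lymphoma arrays. The 5 lymphoma values lay inside the wild-type range of 4.90. The difference was 0.33 (SE 0.87, limma adjusted p = 0.82), and 1.25 (SE 0.79, limma adjusted p = 0.26) without wild-type arrays 1 and 6. Lymphoma array 2, the lowest of its group for the 4 B lineage genes, was the highest of its group for Cd74.

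H2-Aa, the alpha chain, read 12.75, 12.05, 8.48, 8.49, 12.08 and 12.57 on the wild-type arrays and 11.61, 10.46, 11.43, 10.14 and 11.16 on the lymphoma arrays. H2-Ab1, its beta chain, read 12.79, 11.67, 8.45, 8.60, 12.01 and 13.53 on the wild-type arrays and 11.26, 10.25, 11.35, 9.88 and 11.41 on the lymphoma arrays. H2-Eb1, the beta chain of the other isotype, read 12.99, 11.88, 8.68, 8.47, 11.17 and 12.87 on the wild-type arrays and 11.24, 10.09, 11.68, 10.23 and 11.51 on the lymphoma arrays. For all 3 chains wild-type arrays 3 and 4 were the lowest of the 11, arrays 1 and 6 the highest, and lymphoma arrays 2 and 4 the lowest of their group.

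None of these chains passed the test in either direction. The difference was -0.11 (SE 0.86, limma adjusted p = 0.94) for H2-Aa, -0.35 (SE 0.91, limma adjusted p = 0.82) for H2-Ab1 and -0.06 (SE 0.86, limma adjusted p = 0.97) for H2-Eb1. With standard errors near 0.9, a change of 2-fold in either direction was within the uncertainty of all 3. Their sign depended on which wild-type arrays were used. Without arrays 1 and 6 the differences were 0.68, 0.64 and 0.90, with limma adjusted p of 0.56, 0.57 and 0.38, and without arrays 3 and 4 of both groups they were -1.29, -1.53 and -1.28, with 0.078, 0.15 and 0.24. The other 3 probe sets of H2-Aa and H2-Ab1 had differences of -0.38 to -0.29 on all arrays, on the same side as their representatives.

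Ciita, the transactivator, read 8.35, 6.85, 5.69, 5.06, 7.64 and 9.41 on the wild-type arrays and 5.18, 5.71, 6.38, 5.65 and 6.98 on the lymphoma arrays. The highest lymphoma value was above 3 of the 6 wild-type values. The difference was -1.19 (SE 0.72, limma adjusted p = 0.29), and -0.33 (SE 0.55, limma adjusted p = 0.67) without arrays 1 and 6. Its second probe set ranged from 5.11 to 6.65 on the wild-type arrays and from 4.90 to 5.47 on the lymphoma arrays, where 3 of 5 values were near the floor, with a difference of -0.74 (limma adjusted p = 0.12).

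**Figure D2:**
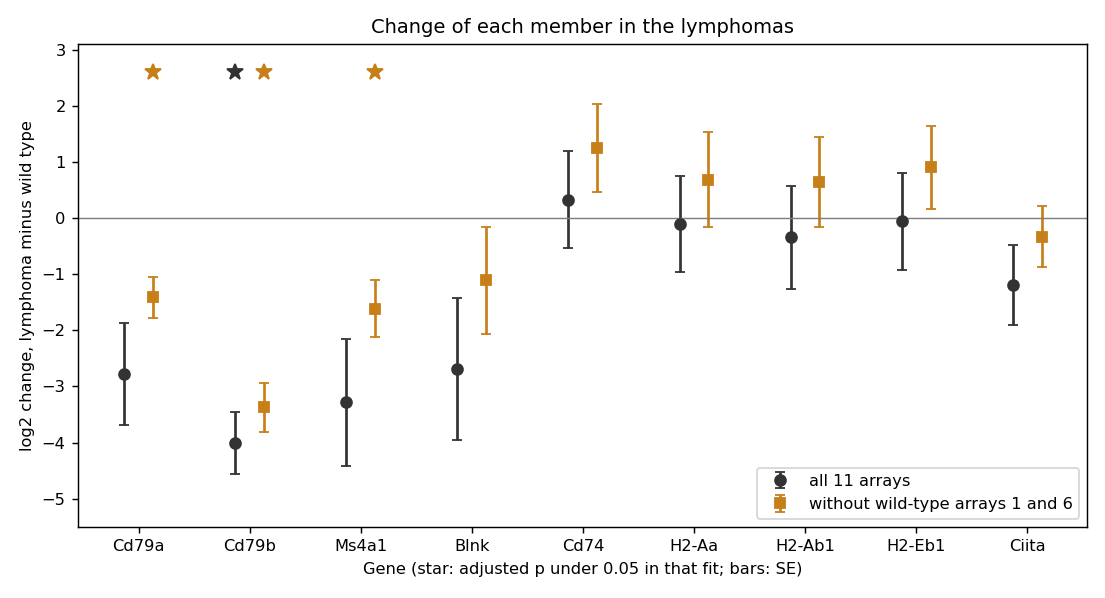
Log2 difference of each gene, lymphoma minus wild type (y axis), for the 9 genes (x axis), from all 11 arrays (circles) and without wild-type arrays 1 and 6 (squares), with bars of 1 SE and a star where the adjusted p was under 0.05. Cd79b is starred in both, at -4.01 and -3.37, Cd79a and Ms4a1 are starred only without the 2 arrays, and the 4 structural class II genes lie on both sides of 0.

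The wild-type arrays also set the genes apart from each other when each was read against its own highest wild-type array. For every gene this was wild-type array 1 or 6, the arrays that go against their label. Distances from the highest of the other wild-type arrays would be smaller, and the reading was not repeated without arrays 1 and 6. On arrays 3 and 4, Cd79b was 1.80 and 1.76 below its maximum on the log2 scale, while the other 8 genes were between 3.71 and 6.65 below theirs. On lymphoma arrays the 4 B lineage genes were 4.85 to 8.01 below their wild-type maximum. The 4 structural class II genes were 0.68 to 3.65 below theirs on the same arrays. Ciita, the remaining class II gene, differed from its own maximum by -4.23 to -2.43 there, partly beyond the range of the structural genes.

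**Figure D3:**
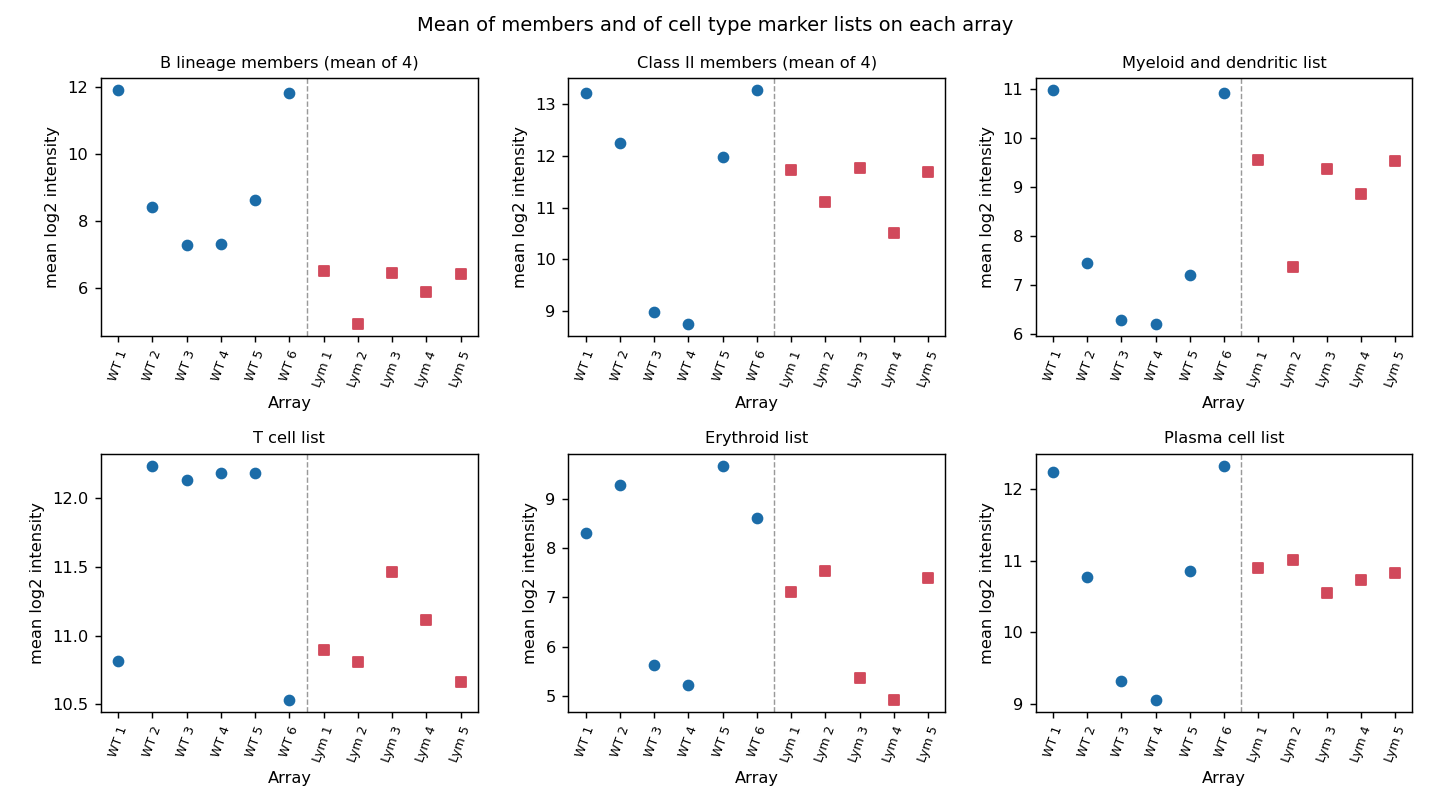
Mean log2 intensity (y axis, with its own range in each panel) on each wild-type and lymphoma array (x axis), 1 point per array, for the 4 B lineage genes, for Cd74, H2-Aa, H2-Ab1 and H2-Eb1, and for 4 marker lists. The myeloid and dendritic list is highest on wild-type arrays 1 and 6, at 10.99 and 10.92, and the erythroid list is lowest on arrays 3 and 4 of both groups, between 4.92 and 5.62.

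Markers of other cells were read beside the members. The myeloid and dendritic list, 29 of 31 genes measured, had means of 10.99, 7.44, 6.29, 6.19, 7.21 and 10.92 on the wild-type arrays and 9.55, 7.37, 9.37, 8.86 and 9.53 on the lymphoma arrays. Of its genes, 1 was called higher and none lower on all arrays, where 9.13% of all genes were called higher and 7.71% lower. Without wild-type arrays 1 and 6, 16 were called higher, where 13.2% of all genes were. Its median difference was 0.67, 2.12 without those arrays and -0.60 without arrays 3 and 4 of both groups, so its sign depended on the arrays used. Lyz2, the lysozyme of macrophages, read 14.22, 9.68, 8.02, 7.02, 7.83 and 14.20 on the wild-type arrays and 12.69, 9.86, 12.32, 11.32 and 12.63 on the lymphoma arrays. The difference of Lyz2 was 1.60 (limma adjusted p = 0.46), and 3.63 (limma adjusted p = 0.0052) without wild-type arrays 1 and 6. The part of myeloid cells in the class II values was not tested.

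The mean of the 4 B lineage genes was 11.89 and 11.80 on wild-type arrays 1 and 6, 7.29 to 8.62 on the other 4, and 4.91 to 6.51 on the lymphoma arrays. The mean of the 4 structural class II genes was 13.21 and 13.28 on wild-type arrays 1 and 6, 8.99 and 8.74 on arrays 3 and 4, and 10.52 to 11.76 on the lymphoma arrays. On the lymphoma arrays the mean of these 4 B lineage genes thus lay below every wild-type array, and the class II mean lay above wild-type arrays 3 and 4. A longer B lineage list, described below with 26 genes measured, did not separate in this way. Its means were 10.13 on wild-type arrays 1 and 6, 7.96 and 8.02 on arrays 2 and 5, and 7.09 on arrays 3 and 4. On the lymphoma arrays they were 7.18 to 7.78. The T cell list, 14 of 15 genes measured, had means of 10.82 and 10.53 on wild-type arrays 1 and 6, 12.13 to 12.23 on the other 4 and 10.66 to 11.46 on the lymphoma arrays. Cd4, the coreceptor of helper T cells, read 9.12, 9.63, 6.58, 6.25, 11.11 and 8.99 on the wild-type arrays and 5.92 to 6.73 on the lymphoma arrays, and its difference of -2.27 had a limma adjusted p of 0.073. Without arrays 1 and 6 the difference of Cd4 was -2.04 (limma adjusted p = 0.13), and without arrays 3 and 4 of both groups Cd4 fell 10.2-fold (log2 -3.35, limma adjusted p = 0.021).

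Other genes of the B lineage were counted from a list of 28, of which 26 were measured. On all arrays 2 were called lower, 1 higher and 23 did not pass, where 16.8% of all genes were called, with a median difference of -0.91. Without wild-type arrays 1 and 6, 5 were called lower and 2 higher, where 26.4% of all genes were called, with a median of -0.09. Both counts are near the share over all genes. Cd72, a B cell coreceptor, read 11.26, 9.45, 11.40, 10.74, 8.83 and 11.23 on the wild-type arrays and 6.56 to 7.89 on the lymphoma arrays, and fell 7.99-fold with no overlap (limma adjusted p = 0.0025). Its values on wild-type arrays 3 and 4, like those of Cd79b, were not low. Vpreb1, a surrogate light chain of the pre-B cell receptor, fell 4.99-fold (limma adjusted p = 0.012). Pou2f2, one of the POU factors that read the octamer, rose 2.43-fold (limma adjusted p = 0.016). All 3 also passed without wild-type arrays 1 and 6, while without arrays 3 and 4 of both groups Cd72 (limma adjusted p = 0.064) and Vpreb1 (0.16) did not. Pax5, the factor that sets B cell identity, lay between 5.03 and 5.99 on all 11 arrays, at or close to the floor, with no separation of arrays 1 and 6. The mean of the 26 measured genes did separate these arrays, at 10.13 on both, against 7.09 to 8.02 on wild-type arrays 2 to 5.

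Of the other class II presentation genes, 17 measured from a list of 20, 4 fell, none rose and 13 did not pass, with a median difference of -0.52. Over all genes 7.71% were called lower and 9.13% higher. H2-DMa, a chain of the chaperone that loads peptide, read 11.36, 11.35, 11.50, 11.23, 10.54 and 10.87 on the wild-type arrays and 9.36, 8.75, 9.21, 8.83 and 9.17 on the lymphoma arrays. Its groups did not overlap, and it fell 4.21-fold (SE 0.20 on the log2 scale, limma adjusted p = 0.0001), or 4.25-fold without arrays 1 and 6. Unlike the classical chains, H2-DMa was not low on wild-type arrays 3 and 4. Cd86, a costimulatory ligand of antigen-presenting cells, fell 4.01-fold (limma adjusted p = 0.0019). Nfya, the Y box subunit, fell 2.02-fold (limma adjusted p = 0.010), and Rfxap, of the X box complex, fell 1.43-fold (limma adjusted p = 0.020). Without arrays 1 and 6 these 4 still passed, and 5 genes of this list were called lower and 3 higher, where 13.2% of all genes were called in each direction. Without arrays 3 and 4 of both groups Nfya (limma adjusted p = 0.069) and Rfxap (0.26) did not pass.

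The remaining lists mark the T cells themselves and other cells. Of 8 natural killer cell genes measured, 4 fell, with the largest difference for Klrd1 (log2 -6.45), where 7.71% of all genes were called lower. Without wild-type arrays 1 and 6, 2 of them, Klrd1 and Klra7, were called lower (13.2% of all genes), since Klrk1 (limma adjusted p = 0.053) and Klra8 (0.056) did not pass, and without arrays 3 and 4 of both groups 1 was, Klrd1 (2.62% of all genes). Of 14 T cell genes, Trat1 and Cd2 fell and Cd28 rose, where 7.71% of all genes were called lower and 9.13% higher. The call of Cd28 was lost without arrays 1 and 6. The same shares apply to the lists that follow. Of 5 plasma cell genes, Irf4 rose 3.56-fold (limma adjusted p = 0.027), of 29 myeloid and dendritic genes Batf3 rose 7.38-fold (limma adjusted p = 0.0010), and both are also known in activated T cells. Both passed without wild-type arrays 1 and 6, and Irf4 did not pass without arrays 3 and 4 of both groups (limma adjusted p = 0.21). Of 4 erythroid genes, Hba-a1 was called lower at values near the floor on all 11 arrays, also without arrays 1 and 6 but not without arrays 3 and 4 of both groups (limma adjusted p = 0.26). Of 7 fibroblast and stroma genes none passed, and Col1a2 had the smallest p (log2 1.20, limma adjusted p = 0.14). Without wild-type arrays 1 and 6, 1 of the 7 was called higher, where 13.2% of all genes were. This was Fn1, which encodes fibronectin, also made by macrophages (log2 4.25, limma adjusted p = 0.00029). On all arrays its difference was 2.01 (limma adjusted p = 0.38). Fn1 read 12.33, 5.98, 4.88, 6.36, 5.76 and 12.60 on the wild-type arrays. On the lymphoma arrays it read 9.29, 11.07, 9.39, 10.85 and 9.40. Which cells made Fn1 was not tested.

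**Figure D4:**
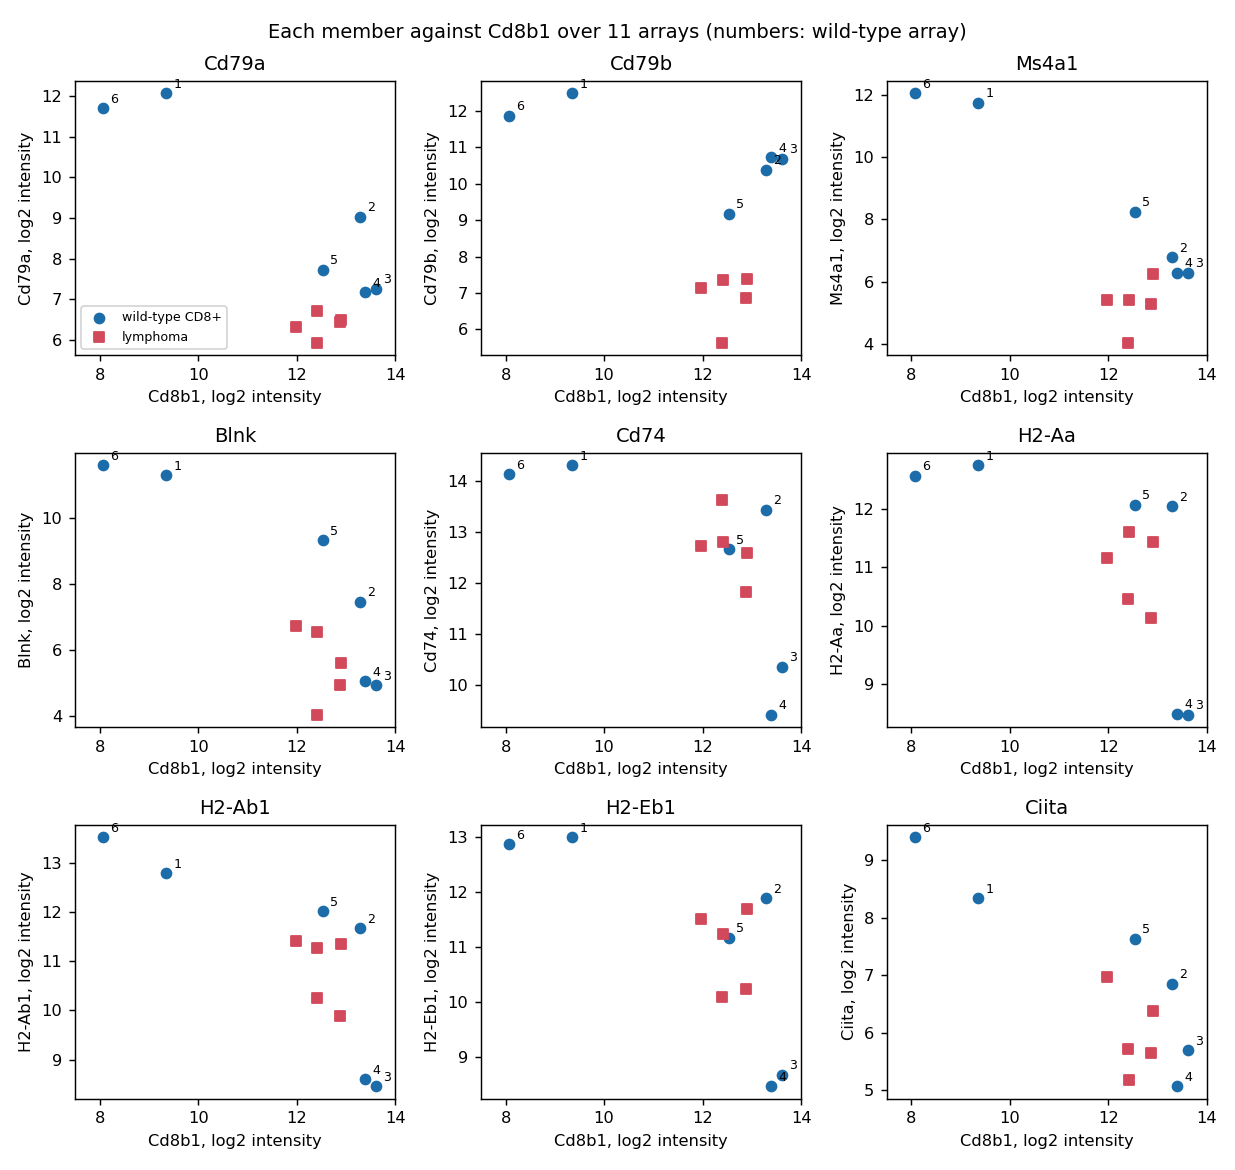
Log2 intensity of each gene (y axis) against that of Cd8b1 (x axis) on the 6 wild-type (circles, numbered) and 5 lymphoma arrays (squares), 1 panel per gene. Wild-type arrays 1 and 6 stand alone at low Cd8b1, 9.35 and 8.07, and the other 9 arrays lie between 11.97 and 13.61.

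Over all 11 arrays the linear correlation with Cd8b1 was negative for all 9 genes and passed the test for 8. Pearson's r was -0.81 for Cd79a, -0.84 for Ms4a1, -0.83 for Blnk and -0.84 for Ciita, and -0.64 to -0.77 for the 4 structural class II genes. The adjusted p of these 8, from a two-sided permutation test over 9 correlations, was 0.016 to 0.029. Cd79b had r = -0.47 (permutation p = 0.16). Spearman's rho was between -0.14 and 0 for Cd79a, Cd79b and Ms4a1, -0.55 for Blnk and between -0.60 and -0.80 for the class II genes and Ciita, and only Cd74 passed (adjusted permutation p = 0.042).

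Wild-type arrays 1 and 6 form a cluster of their own, and how far these coefficients rest on them differed by gene. Over the other 9 arrays none of the 9 passed after adjustment. There Cd79b had r = 0.77 and rho = 0.82 (exact p of r = 0.018, adjusted 0.16), Cd79a had r = 0.52 (exact p = 0.15) and Ms4a1 had r = 0.33 (exact p = 0.40), so the sign of the pooled r turned. These 9 arrays pool wild-type and lymphoma arrays. The lymphoma minus wild-type difference over them was -0.69 for Cd8b1, -3.37 for Cd79b, -1.41 for Cd79a and -1.62 for Ms4a1. The pooled r thus mixes differences between and within groups and is not read as 1 relation. The structural class II genes kept a negative sign. Their r was -0.64 for Cd74, -0.57 for H2-Aa, -0.62 for H2-Ab1 and -0.56 for H2-Eb1, with exact p of 0.064 to 0.12 (each 0.22 adjusted). With arrays 1 and 6 included, r was -0.67, -0.64, -0.77 and -0.73 in the same order. These coefficients thus changed less than those of the B lineage genes and Ciita. Blnk had r = -0.25 (exact p = 0.52) and Ciita r = -0.32 (exact p = 0.40).

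Within groups the picture was limited by the number of arrays. Over the 6 wild-type arrays alone r was -0.98 for Ms4a1, -0.89 for Blnk and -0.89 for Ciita, with exact p of 0.0028, 0.014 and 0.0097 (adjusted 0.025, 0.042 and 0.042), and -0.93 to -0.68 for the others, which did not pass. Spearman's rho over these 6 arrays passed for Ms4a1, Blnk and Ciita too. It also passed for H2-Aa (-0.94, adjusted exact p = 0.030) and H2-Ab1 (adjusted exact p = 0.0125). For H2-Ab1 and Blnk the order of the arrays was the exact reverse of that for Cd8b1. Cd79a, Cd79b, Cd74 and H2-Eb1 did not pass by rho. Arrays 1 and 6 had the lowest Cd8b1 of these 6 arrays, and only 4 wild-type arrays remain without them. No coefficient was computed over those 4. Among them array 5 had the lowest Cd8b1, 12.53, and the highest Ms4a1, Blnk and Ciita (8.25, 9.32 and 7.64). The 5 lymphoma arrays are too few for a coefficient, and Cd8b1 varied there only from 11.97 to 12.90. With both genes centred on their group means, all 9 members passed over 11 arrays, with r of -0.63 to -0.93 and adjusted permutation p of 0.0018 to 0.038. The permutation moved values across both groups, though the SD of Cd8b1 was 2.38 on the wild-type and 0.38 on the lymphoma arrays. The p-values of this setting may thus be too small. With Cd8a in place of Cd8b1 all 9 passed as well. Wild-type arrays 1 and 6 were the lowest in both of these settings.

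The genes whose pattern over the 11 arrays was most like that of the 2 sets were taken from 5325 genes with an SD of at least 0.5. For the mean of Cd79a, Cd79b and Ms4a1 they were Prss28, Rasgrp4, Entpd1, Galns and Fcrl1, with Pearson's r of 0.95 to 0.96, and 0.79 to 0.90 over the 9 arrays without wild-type 1 and 6. Fcrl1 is a B cell Fc receptor-like protein, and Entpd1 is the surface enzyme CD39. For the mean of Cd74, H2-Aa, H2-Ab1 and H2-Eb1 they were Mpeg1, Slc40a1, Dhrs3, Ly86 and Hebp1, with r of 0.95 to 0.98, and 0.94 to 0.97 over the 9 arrays. Mpeg1 is a pore-forming protein of macrophages, Slc40a1 the iron exporter ferroportin and Ly86 a partner of a Toll-like receptor homologue. The points share the arrays and their normalisation, and the coefficients are descriptions.

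In the fibroblasts, cells that display little class II without a stimulus, 10 of the 14 probe sets and 5 of the 9 genes were near the floor on all 12 arrays. The T cell arrays may have been normalised apart from the MEF arrays, and levels across them have only a rough scale. Array medians were 8.04 to 8.37 on the T cell arrays and 7.26 to 7.32 on the MEF arrays. The MEF comparisons share their control cells, since the control arrays of the second set repeat those of the first, and 9 distinct arrays entered the fit. In Ezh2-deficient MEFs 1 of 9 genes was called higher and 0 lower, where 3.49% of all genes were called, 1.02% higher and 2.47% lower. This was H2-Ab1, with 4.63, 4.57 and 4.61 in the mutant and 4.36, 4.34 and 4.35 in its controls, all near the floor, a difference of 0.25 (SE 0.05, limma adjusted p = 0.038) that lost its call without any 1 of the arrays it compares. Another probe set of H2-Ab1, also near the floor on all 12 arrays, differed by 0.27 (limma adjusted p = 0.030).

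In Snf5 Ezh2-deficient MEFs 1 of 9 genes was called higher and 0 lower, where 27.5% of all genes were called, 13.2% higher and 14.3% lower. H2-Eb1 read 7.41, 7.57 and 7.36 there and 6.99, 7.07 and 7.14 in the control arrays of the same set, a 1.30-fold rise without overlap (log2 0.38, SE 0.07, limma adjusted p = 0.0029). In Ezh2-deficient MEFs H2-Eb1 read 7.18, 7.09 and 7.08, against 6.84, 6.82 and 6.96 in controls, and its difference of 0.24 had a limma adjusted p of 0.089. Blnk and the other B lineage genes had differences of -0.30 to 0.28 in both comparisons and none was called.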

How the data were processed

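Per the labels, the authors purified RNA with Trizol followed by a column step and ran RMA (background correction, quantile normalisation and probe set summary) on the scans, as the submitters' processing notes also list. The sources used here do not give the RMA software or its version. On inspection the deposited intensity was linear, not on the log2 scale the design had assumed, and log2 was taken here of all 22690 probe sets on 23 arrays.

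The 64 control probe sets were left out. Symbols came from the platform annotation, with 20380 probe sets naming 1 gene, 691 several and 1555 none. Same-numbered controls of both MEF sets were repeats (SD of 0.0266 to 0.0287 over bright probe sets once an offset was removed, against 0.141 to 0.163 for other pairs), so they were averaged and counted once, with the second set moved by the offset. The tests used lmFit and eBayes of limma 3.58.1 under R 4.3.3, and p-values were adjusted by Benjamini-Hochberg across 22626 probe sets at a threshold of 0.05. The 11 T cell arrays were fitted apart from the MEF arrays. The closest pair of T cell arrays, lymphoma arrays 1 and 5, differed by an SD of 0.377 and was kept as 2 samples. Correlations were tested by 100000 permutations, or by exact permutation for under 10 arrays. The fit was tested on simulated data.

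The members and the marker lists were chosen with earlier results of these data known. Genes named outside the members were the called genes of each list with the largest change, up to 4, or the one with the smallest p; Smarcb1, Cd8a, Cd8b1, Cd4, Lyz2, Pax5 and Fn1 were named as references, the last 3 after their values were seen. Arrays give no counts, and their number limits the precision. The alternatives were a pseudocount of 16, quantile normalisation, a filter on low probe sets, a mean-variance trend, array weights, a replicate block and leaving out arrays.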

Additional observations from a re-analysis of the deposited data

How the results depend on the processing

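Cd79b was called lower under all 19 alternatives, with differences of -4.35 to -3.37 and a largest limma adjusted p of 0.039. Cd79a passed in 4 of the 19, Ms4a1 in 1 and Blnk in 0, all with the same sign throughout. The members called in the lymphomas were 2 with array weights and 3 without wild-type arrays 1 and 6, and 1 to 2 when 1 array was left out (2 without wild-type array 3 or 4). Over all genes the 2088 calls became 3227 with array weights, 3273 without wild-type arrays 1 and 6 and 588 without arrays 3 and 4 of both groups, and 1408 to 2303 with 1 array left out. H2-Aa was lower in 10 and higher in 9 of its alternatives, H2-Eb1 lower in 11 and higher in 8, H2-Ab1 lower in 15 and higher in 4, and Cd74 lower in 3 and higher in 16, and none of these passed. In Ezh2-deficient MEFs the 1 call became 0 with the pseudocount, with quantile normalisation, with the filter, with the replicate block, with each set fitted alone and with any 1 array left out. In Snf5 Ezh2-deficient MEFs the 1 call became 2 with each set alone, and 1 to 2 with 1 array left out (2 without wild-type array 3). The 8 correlations with Cd8b1 became 1 with Spearman's rho, 0 without the 2 arrays farthest from the median and 3 over the wild-type arrays alone; Cd79a and Ms4a1 then turned to 0.52 and 0.33 without the 2 farthest. The cause of these shifts was not tested.

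Arrays with the same number in different groups had correlated deviations from their group means with r of 0.0885 to 0.394 on the T cell arrays and -0.0336 to 0.210 on the MEF arrays. T cell arrays of different numbers had r of -0.268 to 0.290. The titles do not say that equal numbers are pairs, so the main fit did not pair them. Whether they share an origin was not tested. With the replicate block 2072 genes and 1 member were called in the lymphomas (Cd79b, -3.82, limma adjusted p = 0.0078), and 0 and 1 members in the Ezh2-deficient and Snf5 Ezh2-deficient MEFs. Wild-type arrays 1, 2, 4 and 5 correlated best with the lymphoma array of their own number, and wild-type array 3 with lymphoma array 4. Lymphoma arrays 2 and 4 correlated best with the wild-type array of their own number, and lymphoma arrays 1, 3 and 5 with another. The leaving out of wild-type arrays 1 and 6, and of arrays 3 and 4, was chosen after seeing the data. RMA values have no detection call, which limits what can be read near the floor.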

Other observations

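Some lymphoma arrays differed from the rest of their group in genes of the B lineage and dendritic lists, chosen here after their values were seen. Ebf1, the early B lineage factor, read 11.21 on lymphoma array 4 and 7.55 to 8.00 on the other 4, while Cd79a, with the site shown for it, read 6.44 on that array. Cd22, an inhibitory coreceptor of B cells, read 9.13 on lymphoma array 2 and 5.57 to 6.93 on the others, and Cd79b was at its lowest, 5.64, on array 2. Fcgr2b, the inhibitory Fc receptor, read 9.96 on lymphoma array 3 and 6.44 to 7.60 on the others. Xcr1, a chemokine receptor of cross-presenting dendritic cells, read 8.70 and 7.19 on lymphoma arrays 3 and 4, and 4.22 to 5.32 on the other 9 arrays. These values are given per array, with no test.

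Immunoglobulin transcripts were read beside the partner chains of the receptor. Ighm, the heavy chain of IgM, read 12.07 and 12.59 on wild-type arrays 3 and 4, 13.80 to 14.65 on the other 4, and 13.88, 13.10, 11.07, 10.54 and 14.06 on lymphoma arrays 1 to 5, and its difference of -1.07 had a limma adjusted p of 0.35 (-0.59 and 0.60 without wild-type arrays 1 and 6). Jchain, which joins secreted immunoglobulin, read 10.52 to 14.09 on the wild-type arrays and 8.51 to 12.63 on the lymphoma arrays. Arrays 3 and 4 were the lowest of both groups for Ighm and Jchain, and the same arrays were the lowest for the erythroid list. Whether a batch sets them apart was not tested, since the labels name none.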
